A study of Homo sapiens with 12 samples.

Results

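A set of 9 genes of plasminogen activation and of the tissue factor pathway were followed in A549, a line of human lung adenocarcinoma cells that keeps some traits of alveolar type II epithelium. They were chosen by name, with earlier results of these data known: PLAU, PLAUR, PLAT, SERPINE2, SERPINB2, F3, TFPI, TFPI2 and THBD. Of these 9 genes, 8 had a probe set assigned to 1 gene symbol, 32 probe sets in all, out of 18132 genes tested, and SERPINB2 was not analysed here. The 12 Affymetrix PrimeView arrays fell into 4 groups of 3. They held monolayers heat shocked for 2 h and then wounded for 4 h, monolayers wounded for 4 h, monolayers heat shocked for 2 h, and untreated control monolayers. All cells grew on uncoated plastic, with no transgene or drug named. When monolayers given heat shock alone were collected is not stated, so the time between heat shock and lysis may differ between the heat shocked groups. Nor is it stated whether arrays within a group had separate cultures, so p-values measure the spread between these samples, which may be technical. A549 is 1 tumour line, and results hold for that line only.

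Urokinase (PLAU) and tissue-type plasminogen activator (PLAT) are serine proteases that cut plasminogen to plasmin, which dissolves fibrin and activates matrix metalloproteases. Urokinase is held at the cell surface by its receptor (PLAUR) and is inhibited by serpins such as protease nexin-1 (SERPINE2). Tissue factor (F3) is the membrane receptor for factor VIIa that starts coagulation, TFPI is its main inhibitor, TFPI2 is a related Kunitz-type inhibitor that acts on plasmin, and thrombomodulin (THBD) binds thrombin and turns it towards activation of protein C. In injured lung epithelium these proteins are known for their part in fibrin deposition, fibrin removal and cell migration.

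Values are log2 probe set levels, and a difference of 1 is a 2-fold change. Each gene was read through its probe set with the highest mean, called its main probe set. Levels are not comparable between genes, since probe sets bind with different strength. A gene was called at a limma adjusted p under 0.05, adjusted over all 18132 genes of a comparison. The median level of an array lay between 5.3 and 5.32. In the group given both treatments, replicate 2 stood apart, with an interquartile range of 3.98, against 4.13 to 4.24 on the other arrays. Without this array, the 4 strongest rises against control were 0.72 for PLAU, 1.33 for PLAUR, 1.096 for SERPINE2 and 1.46 for F3, all still called. The epithelial genes KRT8, KRT18 and EPCAM were at 13.1 to 13.8 for the keratins and 9.13 to 9.25 for EPCAM, as group means. Of the 7 alveolar type II genes listed, ABCA3 was at 7.37 to 7.65, SFTPC at 5.97 to 6.30, NAPSA at 5.81 to 6.12, SFTPB at 5.26 to 5.40, NKX2-1 at 4.78 to 5.19, LAMP3 at 2.66 to 3.04 and SFTPA1 at 2.26 to 2.38. The mean over 10 endothelial marker genes lay between 3.95 and 4.29 on the 12 arrays and that over 9 leukocyte marker genes between 4.36 and 4.51. PECAM1 and PTPRC, defining genes of these cells, did not exceed 4.01 and 2.38, while ESAM reached 6.43, TYROBP 6.39 and CD68 7.18. The upper quartile of these 19 genes in control monolayers, 4.92, was used as a rough guide to a dim level, and some of these genes lie above it by construction. HSPA6, a stress-inducible chaperone gene, was at 10.76 in heat shocked and wounded, 4.61 in wounded, 10.09 in heat shocked and 4.30 in control monolayers. EGR1, an immediate early gene, was at 8.01 in heat shocked and wounded, 8.02 in wounded, 6.06 in heat shocked and 5.03 in control monolayers. Fewer cells of a kind and less RNA per cell cannot be told apart in such lysates.

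The 250 bases before the start site of 3 members are shown because they hold the letters of an AP-1 site, TGANTCA, and because these 3 genes differed between groups. AP-1 is a family of dimers, among them that of FOS and JUN. FOS was 2.91-fold higher than in control monolayers after both treatments (limma adjusted p = 1.577e-05) and 4.13-fold after wounding (limma adjusted p = 2.663e-05). After heat shock FOS was 1.06-fold higher (limma adjusted p = 0.8261). The sequences come from RefSeq, build GRCh38.p14, 5′ to 3′ in the direction of the gene, with each match in capitals. All 3 genes lie on the minus strand, F3 at chr1:94541760-94542009, PLAUR at chr19:43670170-43670419 and TFPI2 at chr7:93890754-93891003.
F3: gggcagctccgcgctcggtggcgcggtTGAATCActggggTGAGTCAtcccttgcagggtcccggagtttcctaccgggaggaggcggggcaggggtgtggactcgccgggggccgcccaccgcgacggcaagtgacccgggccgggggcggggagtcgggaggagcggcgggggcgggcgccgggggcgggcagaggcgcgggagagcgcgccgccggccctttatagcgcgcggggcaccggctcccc
PLAUR: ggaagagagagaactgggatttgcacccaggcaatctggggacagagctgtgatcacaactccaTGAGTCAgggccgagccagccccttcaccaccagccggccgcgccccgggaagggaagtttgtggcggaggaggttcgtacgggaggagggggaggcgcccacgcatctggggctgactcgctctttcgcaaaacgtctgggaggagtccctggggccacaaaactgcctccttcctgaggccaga
TFPI2: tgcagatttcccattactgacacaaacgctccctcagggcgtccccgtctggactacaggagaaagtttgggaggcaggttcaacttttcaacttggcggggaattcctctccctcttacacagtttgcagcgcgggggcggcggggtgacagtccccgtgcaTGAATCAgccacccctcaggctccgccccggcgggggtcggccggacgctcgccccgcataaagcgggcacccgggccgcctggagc
F3 has a pair of matches, which begin 223 and 210 bases before the start site, PLAUR has 1 at 186 bases and TFPI2 has 1 at 87 bases. In the RefSeq windows of 300 bases (250 before and 50 after a start), searched on both strands, 4 of the 9 windows of 7 members held an AP-1 match, the fourth in SERPINB2, and so did 7.7% of all 35116 windows. A heat shock element, searched as GAANNTTC or TTCNNGAA, was in 0 of the 9 windows and in 13.5% of all. The EGR letters GCGGGGG were in 2 of the 9 windows, those of F3 and TFPI2, and in 17.0% of all. The CRE core TGACG was in 2 windows, of SERPINE2 and SERPINB2 (24.6% of all), and the NF-kappaB consensus in 1, of TFPI2 (11.3% of all). PLAU and SERPINE2, which were also called higher, had 0 AP-1 matches in their 4 windows, and PLAT and THBD had no window to search. PLAUR was also higher after heat shock, where FOS was not called. Levels of other AP-1 subunits are not given here, and whether AP-1 acts on any member was not tested. These are matches of letters, with no measure of binding in this study, and a window without a match says nothing about sites elsewhere. The F3 and TFPI2 matches of AP-1 and EGR do not overlap each other.

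After both treatments 5 of the 8 members were higher than in control monolayers and 0 were lower: F3, PLAUR, SERPINE2, PLAU and PLAT. Among all genes 23.1% were called in that comparison, 8.66% higher and 14.4% lower. After wounding alone 4 were higher and 0 lower (F3, SERPINE2, PLAUR and TFPI2), where 3.57% of all genes were called, 2.27% higher and 1.31% lower. After heat shock alone PLAUR and SERPINE2 were higher and THBD was lower, 3 of 8 where 12.9% of all genes were called, 4.93% higher and 7.92% lower. These 3 comparisons share the control arrays. The number of genes called moved with single arrays: with 1 array left out it was between 306 and 722 after wounding and between 1438 and 2594 after heat shock, beside 648 and 2330 with all arrays. The median log2 difference of the 8 members was 0.54 after both treatments, 0.30 after wounding and -0.03 after heat shock, beside -0.01, -0.03 and -0.03 over all genes. Since members were chosen with earlier results known, these counts and medians describe them and do not test them against all genes.

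**Figure D1:**
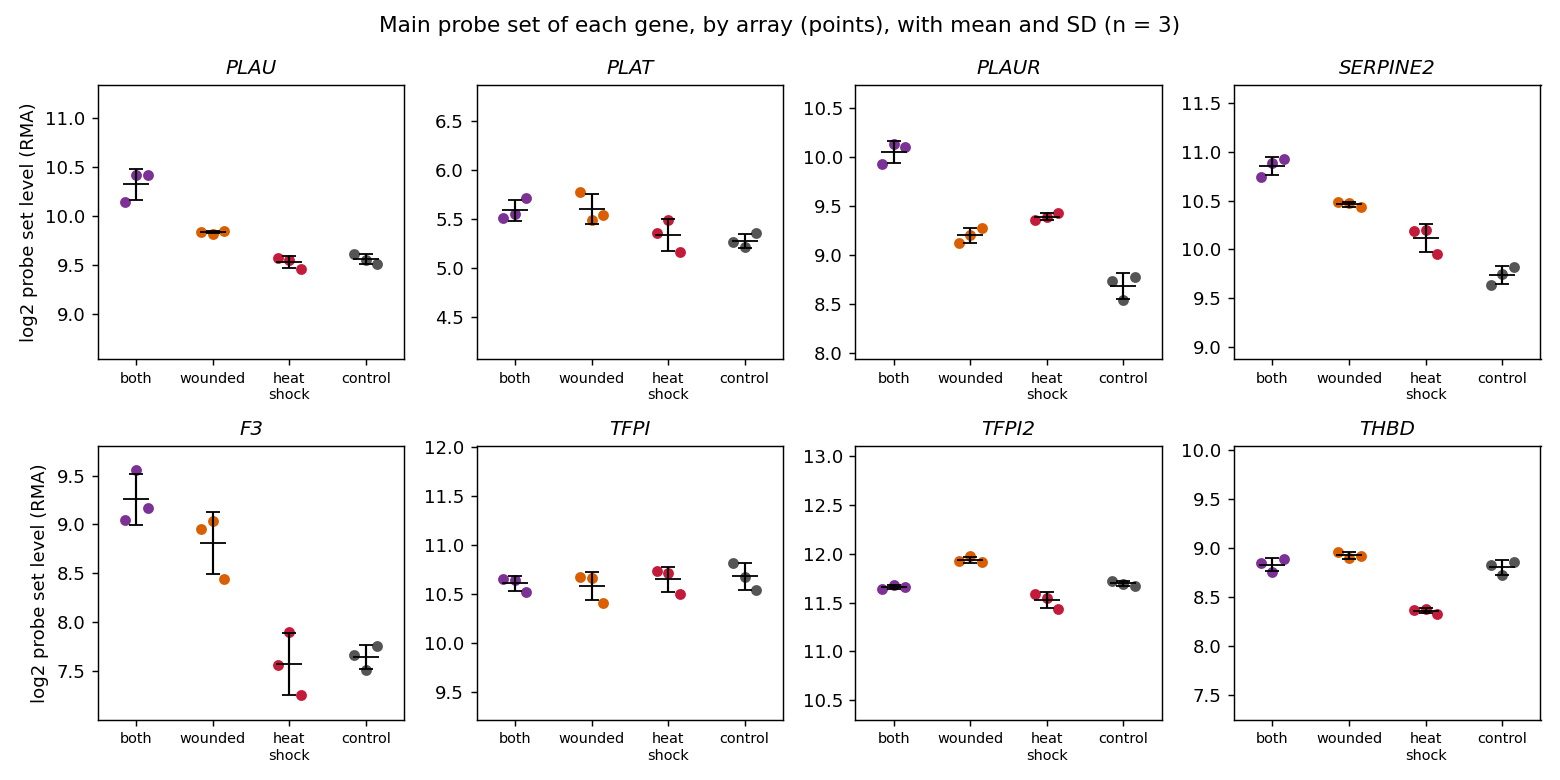
Log2 levels (y axis, a range of 2.8 in every panel) of the main probe set of 8 genes in heat shocked and wounded (both), wounded, heat shocked and control monolayers; points are arrays, bars the mean and SD (n = 3). F3 is high in both wounded groups, PLAUR is highest after both treatments, and THBD is low after heat shock alone.

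**Figure D2:**
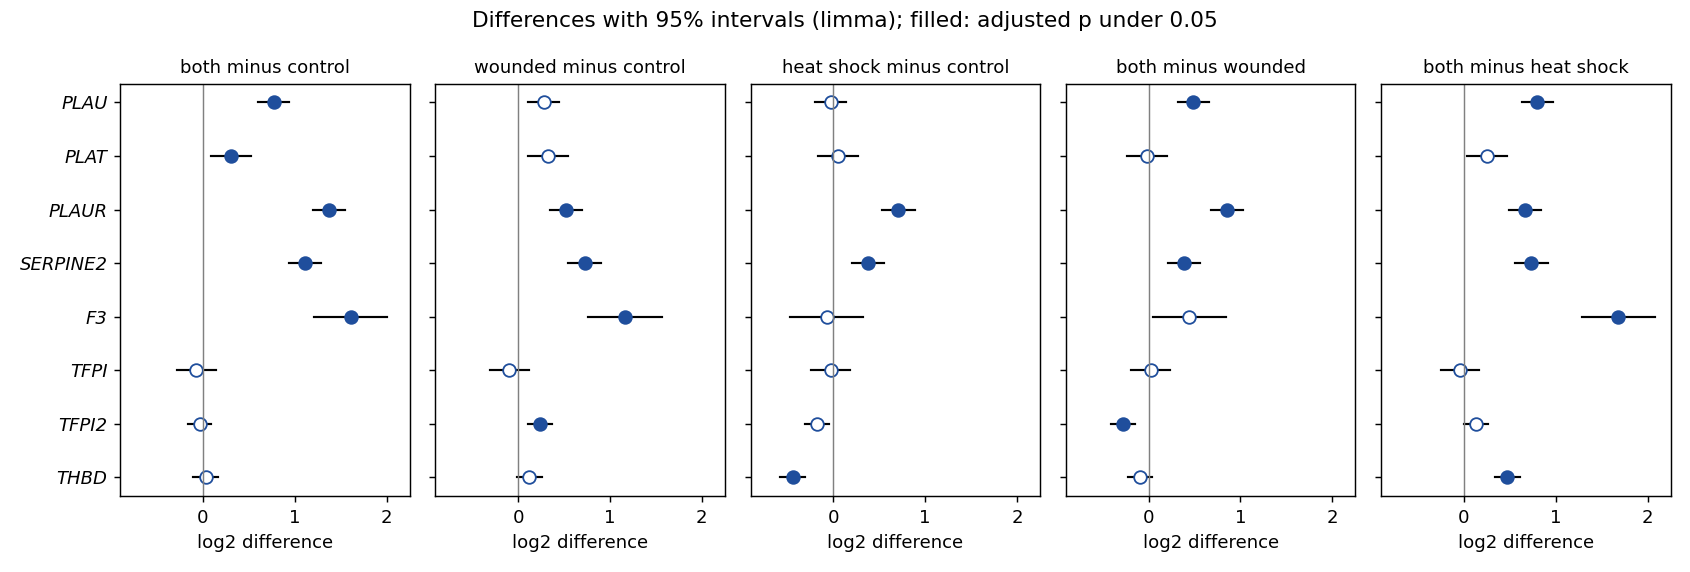
Log2 differences (x axis) of the 8 genes in 5 comparisons of groups, with 95% intervals from limma; filled points have an adjusted p under 0.05. F3, PLAUR, SERPINE2 and PLAU lie right of 0 after both treatments, and TFPI lies near 0 in every panel.

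PLAU, the urokinase gene, was raised where heat shock was followed by wounding. Its level was 10.15, 10.42 and 10.42 in heat shocked and wounded monolayers, 9.84, 9.82 and 9.85 in wounded, 9.58, 9.55 and 9.46 in heat shocked and 9.61, 9.56 and 9.51 in control monolayers. All arrays of the combined group lay above all others, the wounded arrays lay next, and the heat shocked and control arrays overlapped. Against control the log2 difference was 0.77 ± 0.08 after both treatments (SE; 1.70-fold; limma adjusted p = 1.829e-05). After wounding alone it was 0.28 ± 0.08 and not called (adjusted p = 0.08266), and after heat shock -0.03 ± 0.08 (adjusted p = 0.874). The wounded difference passed in 5 of 23 alternative analyses, cyclic loess scaling among them. All 3 PLAU probe sets were called higher after both treatments, by 0.58 to 0.77, and 0 of 3 after either treatment alone, with p-values adjusted over all probe sets. Among all probe sets 18.2% were called after both treatments, 2.33% after wounding and 8.98% after heat shock.

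PLAT, the tissue-type activator, was near the dim level throughout. Its main probe set was at 5.51, 5.55 and 5.71 in heat shocked and wounded, 5.78, 5.49 and 5.54 in wounded, 5.35, 5.49 and 5.16 in heat shocked and 5.27, 5.21 and 5.36 in control monolayers. The wounded groups lay above control and overlapped with each other. The difference after both treatments was 0.31 ± 0.10 (adjusted p = 0.04208), and it was lost in 14 of the 23 alternatives, with adjusted p up to 0.1333. Among those were the fits without each control array in turn (0.1053, 0.1333 and 0.05558 without replicates 1, 2 and 3) and without each combined array in turn (0.05091, 0.06579 and 0.128). It was also lost without heat shocked replicate 1 (0.05675) and wounded replicate 3 (0.05148). Of the 7 PLAT probe sets 0 were called against control after any treatment when p-values were adjusted over all probe sets.

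PLAUR, the urokinase receptor, was higher after each treatment and highest after both. Its level was 9.92, 10.13 and 10.10 in heat shocked and wounded, 9.12, 9.20 and 9.27 in wounded, 9.36, 9.39 and 9.42 in heat shocked and 8.73, 8.53 and 8.78 in control monolayers. None of the 4 groups overlapped, and heat shocked arrays lay above wounded ones. Against control the difference was 1.37 ± 0.08 after both treatments (2.59-fold; adjusted p = 2.887e-07), 0.52 ± 0.08 after wounding (adjusted p = 0.003072) and 0.71 ± 0.08 after heat shock (1.64-fold; adjusted p = 0.0001458). The sum of the single differences was 1.23, and the combined difference exceeded it by 0.14 ± 0.11 (adjusted p = 0.8367). The 3 calls against control held under each of the 23 alternatives.

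Of the 5 PLAUR probe sets, 1 had another pattern, a comparison made after its values were seen. The probe set 11742819_at was at 8.24, 8.24 and 8.35 in heat shocked and wounded, 8.42, 8.37 and 8.16 in wounded, 7.87, 8.03 and 7.79 in heat shocked and 7.89, 7.97 and 7.86 in control monolayers. Both wounded groups lay above the other 2 groups, and the heat shocked arrays overlapped with control. The other 4 probe sets rose after heat shock, by 0.51 to 0.71, whereas 11742819_at differed by -0.01 ± 0.09 (adjusted p = 0.9686 over all probe sets). After wounding all 5 rose, 11742819_at by 0.41 ± 0.09 (adjusted p = 0.02801).

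The difference between 11742819_at and the main probe set was tested within arrays, for all 26826 pairs of a further and a main probe set of 1 gene. Relative to the main probe set, 11742819_at differed by -0.72 ± 0.13 after heat shock against control (limma adjusted p = 0.01771), where 1.57% of all pairs were called. The same difference was -1.0 ± 0.13 after both treatments against control (adjusted p = 0.001184; 4.77% of pairs called) and -0.11 ± 0.13 after wounding (adjusted p = 0.9999; 0.171% called). Between both treatments and wounding alone it was -0.89 ± 0.13 (adjusted p = 0.0061; 1.91% called). The heat shock difference lost its call without control replicate 1 or 2 (adjusted p = 0.05231 and 0.06696) or heat shocked replicate 1 or 3 (0.06336 and 0.06042), while those after both treatments kept theirs without any 1 of the 12 arrays. Among the 24 pairs of the members 1 other was called in these 4 comparisons, a SERPINE2 probe set under the dim level in all 4 groups, in the comparison of both treatments with control. Which transcripts 11742819_at reads is not given in the sources used here, and the main probe set, of the _x_at type, may also bind related sequences.

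**Figure D3:**
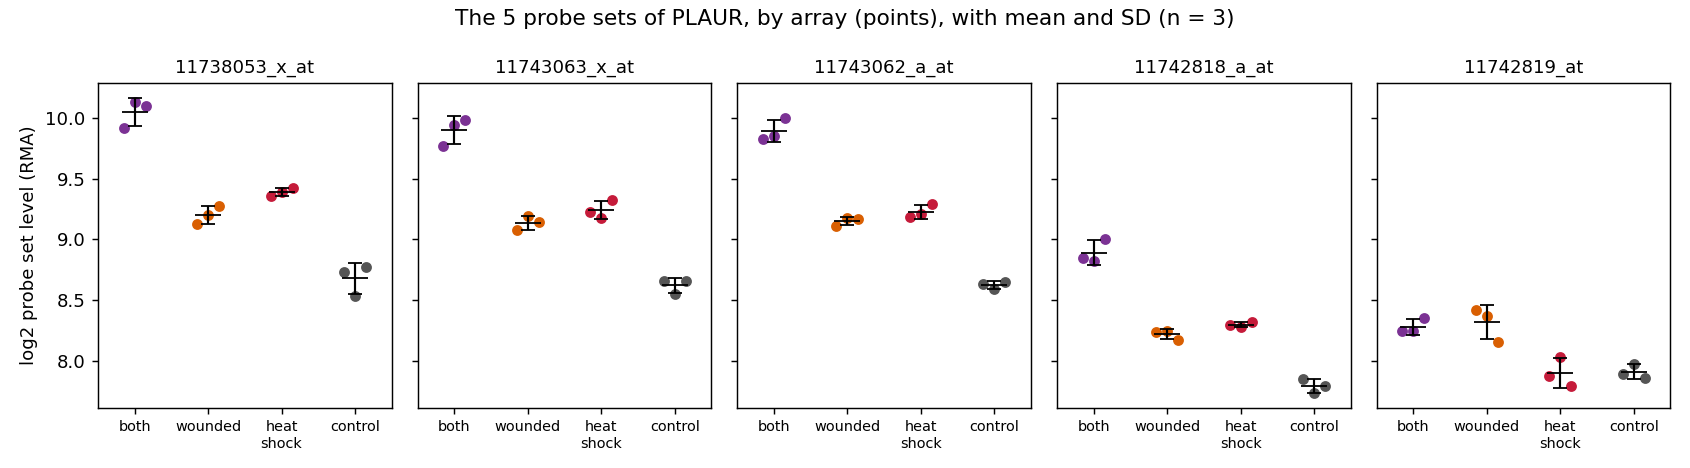
Log2 levels (y axis) of the 5 PLAUR probe sets in heat shocked and wounded (both), wounded, heat shocked and control monolayers; points are arrays, bars the mean and SD (n = 3). In the 4 panels from the left heat shocked arrays lie above control, and in 11742819_at they overlap with control.

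SERPINE2, which encodes protease nexin-1, an inhibitor of thrombin, urokinase and plasmin, was higher after heat shock and after wounding and highest after both. Its level was 10.74, 10.88 and 10.92 in heat shocked and wounded, 10.48, 10.47 and 10.43 in wounded, 10.19, 10.20 and 9.95 in heat shocked and 9.64, 9.75 and 9.82 in control monolayers. No groups overlapped. Against control the difference was 1.11 ± 0.08 after both treatments (2.16-fold; adjusted p = 1.351e-06), 0.73 ± 0.08 after wounding (1.65-fold; adjusted p = 0.0003223) and 0.38 ± 0.08 after heat shock (1.30-fold; adjusted p = 0.009521). The combined difference exceeded the sum of the single ones by 0.01 ± 0.12 (interval -0.24 to 0.26; adjusted p = 0.9941). Over its 6 probe sets this excess ran from -0.25 to 0.29, and 0 were called. Of 6 SERPINE2 probe sets, 6 were called higher after both treatments, 5 after wounding and 5 after heat shock. The descriptions of the arrays carry codes whose meaning is not stated, so whether S2a and S2b are separate samples is unknown. If they are not, the arrays of a group overstate its number of samples. When the arrays coded S2a and S2b of each group were averaged to 1 sample the heat shock call was lost (adjusted p = 0.1289).

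F3, the tissue factor gene, had the largest range of group means of the 8 members and was higher in both wounded groups. Its level was 9.05, 9.55 and 9.17 in heat shocked and wounded, 8.95, 9.04 and 8.45 in wounded, 7.57, 7.90 and 7.26 in heat shocked and 7.66, 7.52 and 7.76 in control monolayers. Every wounded array lay above every array that was not wounded, the combined arrays lay above the wounded ones by a narrow margin, and heat shocked and control arrays overlapped. Against control the difference was 1.61 ± 0.18 after both treatments (3.05-fold; adjusted p = 5.069e-05), 1.16 ± 0.18 after wounding (2.24-fold; adjusted p = 0.003388) and -0.07 ± 0.18 after heat shock (interval -0.47 to 0.33; adjusted p = 0.868). Its 3 probe sets were all called higher after both treatments, by 1.59 to 1.82, and after wounding, by 0.95 to 1.397, and 0 of 3 after heat shock. Among the genes tested, F3 ranked 36 by size of difference after wounding.

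TFPI, the main inhibitor of tissue factor, was not called in any comparison. Its level was 10.66, 10.64 and 10.52 in heat shocked and wounded, 10.67, 10.66 and 10.41 in wounded, 10.73, 10.72 and 10.50 in heat shocked and 10.82, 10.68 and 10.54 in control monolayers. All 4 groups overlapped, and replicate 3 was the lowest array in each. Against control the difference was -0.07 after both treatments (interval -0.28 to 0.14; adjusted p = 0.6669), -0.10 after wounding (-0.31 to 0.11; adjusted p = 0.7794) and -0.03 after heat shock (-0.24 to 0.18; adjusted p = 0.9015). None of its 3 probe sets was called against control after any treatment.

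TFPI2, the Kunitz-type inhibitor of plasmin, was higher after wounding alone than after wounding preceded by heat shock. Its level was 11.64, 11.68 and 11.66 in heat shocked and wounded, 11.92, 11.97 and 11.91 in wounded, 11.59, 11.54 and 11.43 in heat shocked and 11.72, 11.69 and 11.67 in control monolayers. The wounded arrays lay above all others and the heat shocked ones below all others in this main probe set, whereas in its dimmest probe set the heat shocked arrays, at 8.35 to 8.96, overlapped with control, at 8.67 to 8.82. Against control, heat shock gave -0.17 ± 0.06 (adjusted p = 0.07836; called in 3 of 23 alternatives) and both treatments -0.04 ± 0.06 (adjusted p = 0.7221), neither called. Both treatments against wounding alone gave -0.28 ± 0.06 (adjusted p = 0.008544), and all 3 probe sets were called lower, with differences of -0.43 to -0.28, where 11.2% of all probe sets were called. The call was lost with the arrays coded S2a and S2b averaged (adjusted p = 0.1017). Wounding against control gave 0.24 ± 0.06 (1.18-fold; adjusted p = 0.0472), just past the threshold. That call was lost in 16 of 23 alternatives, in 11 of the 12 fits without 1 array, where the adjusted p reached 0.1951. With adjustment over all probe sets, 0 of its 3 probe sets were called after wounding.

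THBD, the thrombomodulin gene, fell after heat shock alone. Its level was 8.85, 8.76 and 8.89 in heat shocked and wounded, 8.96, 8.90 and 8.92 in wounded, 8.37, 8.38 and 8.33 in heat shocked and 8.83, 8.72 and 8.86 in control monolayers. The heat shocked arrays lay below all others, and the combined arrays overlapped with control. Heat shock against control gave -0.44 ± 0.06 (0.735-fold; adjusted p = 0.0006352), wounding 0.12 ± 0.06 (adjusted p = 0.4446) and both treatments 0.03 ± 0.06 (interval -0.11 to 0.16; adjusted p = 0.7948). Both THBD probe sets were called lower after heat shock, with differences of -0.44 and -0.42, and neither after the other treatments. Because the collection time of this group is unknown, time since heat shock and the absence of wounding cannot be told apart where it is set against the combined group.

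When heat shock preceded wounding, 3 members were higher than after wounding alone and 1 was lower, where 14.9% of all genes were called, 6.31% higher and 8.60% lower. PLAUR was higher by 0.85 ± 0.08 (1.81-fold; adjusted p = 4.373e-05), PLAU by 0.49 ± 0.08 (adjusted p = 0.001399) and SERPINE2 by 0.39 ± 0.08 (adjusted p = 0.007678), and TFPI2 was the lower gene. With adjustment over all probe sets, 4 of 5 PLAUR, 2 of 3 PLAU and 4 of 6 SERPINE2 probe sets were called higher. Among all probe sets 11.2% were called. The PLAUR probe set 11742819_at differed by -0.04 and was not called. The SERPINE2 call was lost with the arrays coded S2a and S2b averaged (0.41; adjusted p = 0.05006). F3 differed by 0.44 ± 0.18 and was not called (interval 0.04 to 0.84; adjusted p = 0.1338). It passed when the mean of its probe sets stood for the gene (adjusted p = 0.04372), and it was smaller without combined replicate 2, at 0.30 (adjusted p = 0.3857), and without wounded replicate 3, at 0.26 (adjusted p = 0.4094).

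When wounding followed heat shock, 5 members were higher than after heat shock alone and 0 lower, where 4.3% of all genes were called, 2.71% higher and 1.58% lower. F3 was higher by 1.68 ± 0.18 (3.21-fold; adjusted p = 0.0002427), which ranked 10 by size among all genes. PLAU was higher by 0.80 ± 0.08 (adjusted p = 0.0001151), SERPINE2 by 0.74 ± 0.08 (adjusted p = 0.0002705), PLAUR by 0.66 ± 0.08 (adjusted p = 0.0004882) and THBD by 0.47 ± 0.06 (adjusted p = 0.0008698). The calls of these 5 genes held under each of the 23 alternatives.

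Heat shock alone was also set directly against wounding alone. In this comparison 5 members were lower after heat shock and 0 higher, where 10.5% of all genes were called, 4.51% higher and 6.01% lower. The log2 difference was -1.24 ± 0.18 for F3 (0.424-fold; adjusted p = 0.0009996), -0.57 ± 0.06 for THBD (adjusted p = 0.0001321) and -0.41 ± 0.06 for TFPI2 (adjusted p = 0.0008027). It was -0.35 ± 0.08 for SERPINE2 (adjusted p = 0.01637) and -0.31 ± 0.08 for PLAU (adjusted p = 0.02305), and these calls were lost in 6 and 9 of the 23 alternatives. With the mean of its probe sets SERPINE2 gave -0.21 (adjusted p = 0.08603). PLAUR differed by 0.19 ± 0.08 and was not called (adjusted p = 0.1826). Its probe set 11742819_at went the other way, by -0.42 (limma adjusted p = 0.0107 over all probe sets). Relative to the main probe set it differed by -0.61 (limma adjusted p = 0.04125), a call lost in 8 of 12 fits without 1 array.

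Whether the combined treatment differed from the sum of the single ones was tested as an interaction, which called 0 of the 8 members and 1 of 18132 genes (0.00552%). Without adjustment 2 members had p under 0.05. PLAU exceeded the sum of its single differences, 0.25, by 0.52 ± 0.11 (interval 0.28 to 0.76; limma unadjusted p = 0.000473, adjusted p = 0.3189). The other PLAU probe sets gave 0.35 (unadjusted p = 0.02317) and 0.11 (unadjusted p = 0.6147), and the mean of the 3 gave 0.33. THBD exceeded its sum, -0.32, by 0.35 ± 0.09 (interval 0.16 to 0.54; limma unadjusted p = 0.001764, adjusted p = 0.4695). F3 exceeded its sum, 1.09, by 0.52 with an interval of -0.05 to 1.09 (adjusted p = 0.7189), and by 0.24 to 0.70 over the alternatives. These interactions did not pass the correction, which does not show that the treatments add. The test also uses the group given heat shock alone, whose collection time is unknown. A different time since heat shock therefore cannot be told apart from a departure from the sum.

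**Figure D4:**
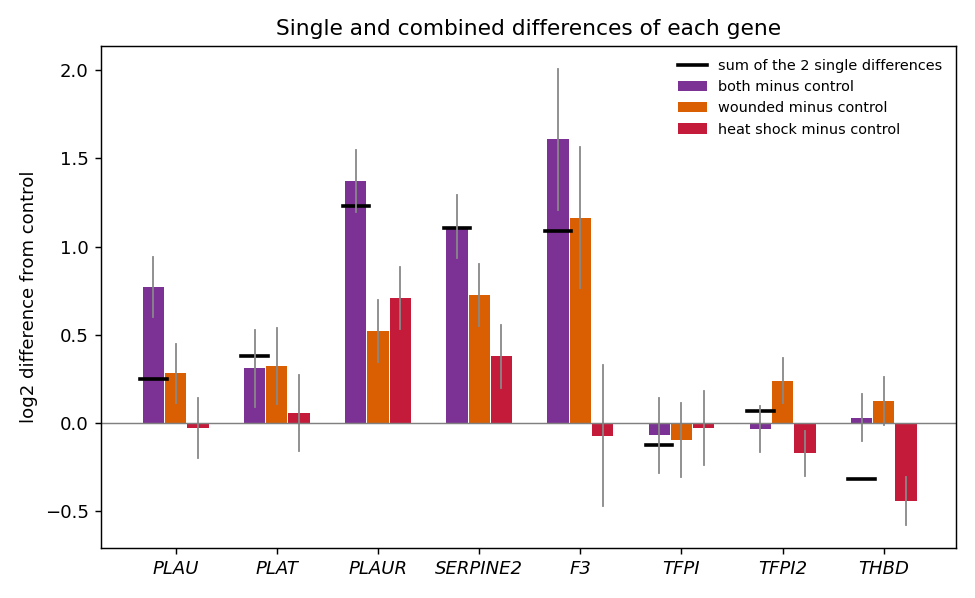
Log2 difference from control (y axis) after both treatments, wounding and heat shock for the main probe set of the 8 genes; bars are limma estimates, grey lines 95% intervals, and black marks the sum of the single differences. The bar for both treatments ends above the mark in PLAU, THBD and F3 and, by less, in PLAUR and TFPI. It ends at the mark in SERPINE2 and below it in PLAT and TFPI2, and 0 of the 8 interactions were called.

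Over the 12 arrays, the genes most like F3 were BEND7, GABARAPL1 and BLOC1S2 (Pearson r of 0.981, 0.972 and 0.97). Those most like PLAUR were TUBA4A, EHD1 and PI4K2A (0.985, 0.984 and 0.984). The arrays share 4 group means, so any gene with the same order of groups scores high, and these values only describe the pattern. Among the members, F3 correlated with SERPINE2 at 0.90 and with PLAUR at 0.67 over the same arrays.

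Other genes of these systems were taken from lists, and their counts stand beside 23.1% of all genes called after both treatments, 3.57% after wounding and 12.9% after heat shock. Among 19 further genes of plasminogen activation, 1 was called after both treatments, 1 after wounding and 0 after heat shock. That gene was SERPINB8, a serpin, which was at 7.34 in heat shocked and wounded, 7.43 in wounded, 6.91 in heat shocked and 7.01 in control monolayers. It was higher than in control by 0.33 after both treatments (adjusted p = 0.003785) and by 0.42 after wounding (adjusted p = 0.004064). Among 24 further coagulation genes, after both treatments 1 was higher (SERPINA5, under the dim level) and 1 lower, 0 were called after wounding and 1 was higher after heat shock. PROCR, the receptor of protein C, was lower after both treatments (log2 difference -0.24; adjusted p = 0.04456). FGA, which encodes the fibrinogen alpha chain, was at 10.62 in heat shocked and wounded, 10.49 in wounded, 11.04 in heat shocked and 10.65 in control monolayers, and the heat shock difference was 0.39 (adjusted p = 0.01823).

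Of 3 protease-activated receptors, F2R, the main thrombin receptor, was higher after wounding by 0.41 (adjusted p = 0.04783), at levels close to the dim one, and F2RL2 was lower after both treatments (log2 difference -0.66; adjusted p = 0.0002184). F2RL2 was at 5.71 in heat shocked and wounded, 6.28 in wounded, 6.21 in heat shocked and 6.37 in control monolayers. Of 17 partners of the urokinase receptor and receptors that clear protease and serpin complexes, 4 were higher and 3 lower after both treatments, 2 higher and 0 lower after wounding, and 1 higher and 1 lower after heat shock. Beside these counts, 23.1%, 3.57% and 12.9% of all genes were called in the same comparisons, and no test of the list was made. EGFR, a signalling partner of the urokinase receptor, was higher by 0.81 after both treatments (adjusted p = 0.0001018), 0.53 after wounding (adjusted p = 0.01069) and 0.57 after heat shock (adjusted p = 0.002942). ITGA5, the alpha chain of the fibronectin receptor, was higher by 1.04 after both treatments (2.05-fold; adjusted p = 0.0001165) and by 0.54 after wounding (adjusted p = 0.04356). LRP8, a member of the LDL receptor family, was lower after both treatments (log2 difference -1.12; adjusted p = 7.496e-06) and after heat shock (-0.87; adjusted p = 0.0001608). VLDLR, of the same receptor family, was lower after both treatments than after wounding (log2 difference -0.75; adjusted p = 0.002722) and than after heat shock (-0.72; adjusted p = 0.007776).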

How the data were processed

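RNA of 12 A549 samples, extracted in Trizol, was hybridised to 1-colour PrimeView arrays. The authors' table holds a log2 level per probe set; the submitters' processing notes name RMA and Affymetrix Expression Console as the means by which the authors made it. RMA subtracts background, gives arrays a common distribution and summarises each probe set, which can compress differences of dim probe sets. The program's version is not given in the sources used here. No detection p was used, and the number of arrays limits the precision.

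Of 49293 probe sets, 1 had a missing value, 44987 carried 1 gene symbol in the platform annotation, 1832 several and 2473 were not listed. Of the 44987, 44960 matched a RefSeq gene by identifier, and 0 symbols changed. Genes were read through the single-symbol probe set with the highest mean, and of 18132 genes 11734 had several probe sets. Group means were fitted jointly over the 12 arrays in limma 3.58.1 (R 4.3.3; 8 residual degrees of freedom, no block), with Benjamini-Hochberg adjustment within each of 7 comparisons and a threshold of 0.05. The fit was also run on simulated data, with independent noise and fewer changed genes than were called here. Estimated differences matched the simulated ones, which checks the code and not how well the model suits these arrays. Many of the smaller changes were not called. A bound on how many of them should be called was missed, and it was then set on larger changes. Intervals are at 95%, and values after ± are SE for differences.

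All members are named. Of the lists of other genes, up to 3 called genes per list and comparison with the smallest adjusted p could be named, and the text gives part of these. The members, lists and tests were chosen with earlier results of these data known. Alternatives were scaling, the filter on dim genes, the choice of probe set, the variance model, array weights, the replicate block, averaging of coded arrays, single arrays left out and the samples in the fit. Whether replicate numbers pair the samples is not settled here, and the main fit used no block. Of 18 same-number pairs of arrays, 6 correlated above 0.1 in their deviations from the group means. Same-number values ran from -0.19 to 0.23 and other-number values from -0.19 to 0.24.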

Additional observations from a re-analysis of the deposited data

How the results depend on the processing

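Over 23 alternatives (22 for the interaction) 1280 member differences were recomputed: 1172 kept direction and side of the threshold, 48 lost and 11 gained a call, and 49 changed sign, 0 of them called in either fit. Of 26 called differences, 19 held under every alternative. The count of members called for both treatments against wounding was 2 with arrays S2a and S2b averaged. For heat shock against wounding it was 3 with that averaging, with the mean of probe sets and with the most variable probe set, and 3 to 5 with 1 array left out (3 without wounded replicate 1 or 2 or heat shocked replicate 3). With the replicate block it was 4 after both treatments, 3 after wounding and 3 after heat shock against control; the block ended the calls of PLAT after both treatments (adjusted p = 0.06524) and TFPI2 after wounding (0.05903) and no other member call. Cyclic loess gave 51.2%, 73.6% and 57.1% of called genes higher in these 3 comparisons, beside 37.6%, 63.4% and 38.4%. Over all genes the number called moved by more than 1.5 times under some settings. After wounding it was 648, and 224 with S2a and S2b averaged, 324 and 306 without wounded replicates 1 and 2, 353, 386 and 425 without control replicates 1, 2 and 3, and 1436 with array weights. After heat shock it was 2330, and 919 averaged, 1438 without heat shocked replicate 1, 1450 and 1530 without control replicates 1 and 2, and 3871 with array weights. After both treatments it was 4180, and 2475 averaged. For both against wounding it was 2704, and 1104 averaged, 1649 without wounded replicate 1 and 1663 with only these groups fitted. For both against heat shock it was 779, and 333 averaged, 512 without heat shocked replicate 2, 498 without combined replicate 2 and 300 with only these groups fitted. For heat shock against wounding it was 1906, and 835 averaged, 1182 without heat shocked replicate 1, 1188 and 1253 without wounded replicates 1 and 2, and 3381 with array weights. The interaction called 0 to 2 genes. The cause of these shifts was not tested. Values that changed sign, on the log2 scale, were the following. With the mean of probe sets, heat shock against control gave 0.0532 for PLAU, 0.0776 for F3 and 0.0637 for TFPI, both against control 0.0654 for TFPI, both against wounding 0.0197 for PLAT, both against heat shock 0.0018 for TFPI, and the SERPINE2 interaction -0.0502. With the most variable probe set, heat shock against control gave 0.181 for F3 and 0.0628 for TFPI, wounding 0.0067 and both treatments 0.0957 for TFPI, both against wounding 0.223 for PLAT, both against heat shock 0.0329 for TFPI, heat shock against wounding 0.037 for PLAT, and interactions of 0.0212 for PLAT and -0.0512 for SERPINE2. With S2a and S2b averaged PLAT gave -0.0077 for heat shock against control, 0.0327 for both against wounding and an interaction of 0.0404. Cyclic loess gave 0.0245 for PLAU and 0.0159 for TFPI after heat shock and 0.0037 for TFPI2 after both treatments against control. Array weights gave -0.0042 for TFPI in both against wounding and a SERPINE2 interaction of -0.121, which was -0.0082 after quantile normalization. With 1 array left out, heat shock against control ranged from -0.0986 to 0.044 for TFPI, -0.0225 to 0.142 for PLAT, -0.0547 to 0.0042 for PLAU and -0.236 to 0.0835 for F3. Both against control ranged from -0.0115 to 0.0668 for THBD, both against wounding from -0.0734 to 0.076 for PLAT and -0.0592 to 0.0704 for TFPI, both against heat shock from -0.116 to 0.0019 for TFPI, and heat shock against wounding from -0.0184 to 0.141 for TFPI. The interaction ranged from -0.0285 to 0.124 for TFPI, -0.155 to 0.0213 for PLAT and -0.072 to 0.0625 for SERPINE2.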
